A study of Mus musculus with 2 samples.

Results

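Small nucleolar RNAs (snoRNAs) of the mouse B-cell lymphoma line CH12.LX were examined in 2 total RNA sequencing libraries. The genes were chosen by name alone: every gene whose GENCODE M21 symbol starts with Snora (box H/ACA snoRNAs) or Snord (box C/D snoRNAs), matched on the gene identifier. This gave 138 of the 43346 genes in the release M4 gene tables, made up of 41 H/ACA and 97 C/D genes. They carry 137 distinct symbols, since Snora43 has 2 rows, and 3 further M21 symbols had no row in M4. Another 1346 genes of biotype snoRNA in M4 have other names. They are not among the snoRNA genes described below, nor in the snoRNA shares. CH12.LX is an established, immortalized line of strain B10.H-2aH-4bp/Wts. The labels name no treatment, and the libraries are biological replicates 1 and 2 of 1 group, so the study holds no contrast between conditions. A single line of 1 tumour origin limits what the values say of B cells in general.

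A snoRNA is a short, stable RNA of the nucleolus that is usually cut out of an intron of a host gene. Box C/D snoRNAs carry the enzyme fibrillarin to sites on ribosomal RNA that receive a methyl group on the ribose, and box H/ACA snoRNAs carry the enzyme dyskerin to sites where uridine is turned into pseudouridine. A few members of both families are needed to cut the ribosomal RNA precursor. Among them are Snora73 (U17), Snord118 (U8), Snord22 (U22) and the Snord14 copies (U14).

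Replicate 1 summed to 49278383 expected counts and replicate 2 to 55950529. An expected count is the estimated number of reads or read pairs from a gene, shared out where a read matches several genes. TPM divides the count by the effective length, the number of places where a fragment of the library could start in the transcript, and scales every library to a total of 1000000. All 6 B cell markers looked at were at 1 TPM or more in both libraries, led by Ighm with 1545 TPM in replicate 1 and 1452 in replicate 2. All 3 neuron markers had 0 counts, and of the T cell, myeloid and erythroid markers only Cd3d reached 1 TPM in both.

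Detection of snoRNAs followed their class and their length. At 10 or more expected counts in each library, 31 of 138 snoRNA genes were detected, 26 of 41 H/ACA and 5 of 97 C/D. Any count at all was found for 35 H/ACA genes and for the same 5 C/D genes. The other 92 C/D genes, of 64 to 111 bases, had 0 counts in both libraries. A count of 0 allows up to 0.0609 counts per 1000000 counts of the library (CPM) in replicate 1 and 0.0536 CPM in replicate 2, taking 3 counts as the upper limit. This is a limit on counts and not on the amount of RNA in the cells. The 5 C/D genes with counts are the 5 longest of the class: Snord22 with 126 bases, Snord118 with 135, Snord15b with 145, Snord15a with 148 and Snord17 with 238. The shortest H/ACA gene, Snora26, has 121 bases, so the classes do not overlap in length apart from those 5 C/D genes, and class and length cannot be told apart for the rest. Intervals and limits here cover counting error only, since reads without molecular identifiers are not independent molecules.

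The same limit was seen in all genes of such length. Of 3677 genes of at most 111 bases, snoRNA or not, 4 had any count and 0 were detected, with at most 10.4 counts in replicate 1 and 8.6 in replicate 2. The shortest gene with a count had 108 bases. Between 112 and 120 bases, where no snoRNA gene falls, 4 of 428 genes had a count. From 121 to 129 bases 6 of 8 H/ACA genes had a count, against 20 of 560 genes that are no snoRNA of these names. From 130 to 136 bases it was 13 of 17 H/ACA genes, against 46 of 527 other genes, and from 137 to 140 bases 8 of 8, against 13 of 103. The 2 H/ACA and 2 C/D genes of 141 to 160 bases all had counts, against 26 of 276 other genes. The 5 H/ACA genes and 1 C/D gene of 161 to 240 bases all had counts, against 129 of 867 other genes. These shares describe the 2 libraries and were not tested, since genes are not replicates.

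**Figure D1:**
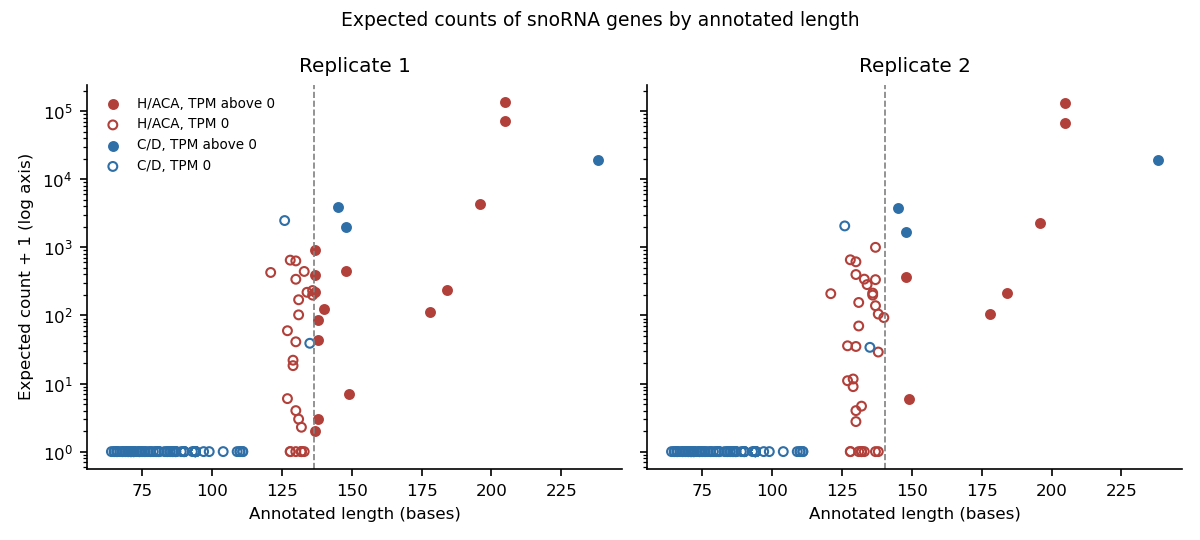
Expected count plus 1 (log axis) of each snoRNA gene against its annotated length in bases, for replicate 1 on the left and replicate 2 on the right, with H/ACA genes in red and C/D genes in blue; open points have a TPM of 0 and the dashed line marks the greatest length with an effective length of 0, 136 bases in replicate 1 and 140 in replicate 2. The 92 C/D genes of 64 to 111 bases lie on the floor at 0 counts, and the long Snora43 row, of 1820 bases, is not drawn.

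The sequences of 8 snoRNAs show the boxes that define the classes and the range of lengths. They were picked after their values were seen: the most abundant H/ACA pair, an H/ACA gene at the length limit of replicate 1, the shortest H/ACA gene, 3 of the 5 C/D genes with counts, and a typical short C/D gene with none. All are GENCODE M21 transcript sequences on GRCm38, printed 5′ to 3′ with T for U. In the H/ACA sequences the capitals mark an ANANNA match (the H box consensus) nearest the middle and the ACA that ends 3 bases before the 3′ end. In the C/D sequences they mark TGATGA within the first 25 bases (C box) and CTGA within the last 15 (D box). The H/ACA sequences come from chr4:132352322-132352526 (minus strand, Snora73b), chr4:132352775-132352979 (minus, Snora73a), chr7:141448803-141448939 (plus, Snora52) and chr5:74093530-74093650 (plus, Snora26).
Snora73b: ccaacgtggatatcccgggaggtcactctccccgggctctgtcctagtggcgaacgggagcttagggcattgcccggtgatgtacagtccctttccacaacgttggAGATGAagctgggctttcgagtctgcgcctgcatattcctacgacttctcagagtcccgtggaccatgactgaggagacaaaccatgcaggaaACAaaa
Snora73a: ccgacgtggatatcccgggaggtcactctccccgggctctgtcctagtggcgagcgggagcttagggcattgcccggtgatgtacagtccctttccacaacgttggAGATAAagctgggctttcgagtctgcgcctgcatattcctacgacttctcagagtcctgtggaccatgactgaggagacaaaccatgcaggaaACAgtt
Snora52: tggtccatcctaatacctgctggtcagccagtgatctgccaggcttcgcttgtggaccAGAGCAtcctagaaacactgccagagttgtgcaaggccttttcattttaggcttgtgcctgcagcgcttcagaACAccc
Snora26: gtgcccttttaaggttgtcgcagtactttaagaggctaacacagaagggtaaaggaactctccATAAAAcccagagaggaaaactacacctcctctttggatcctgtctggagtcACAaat
The C/D sequences come from chr2:144265979-144266216 (minus strand, Snord17), chr7:99479563-99479707 (minus, Snord15b), chr19:8725866-8725991 (plus, Snord22) and chr1:161038082-161038158 (plus, Snord47).
Snord17: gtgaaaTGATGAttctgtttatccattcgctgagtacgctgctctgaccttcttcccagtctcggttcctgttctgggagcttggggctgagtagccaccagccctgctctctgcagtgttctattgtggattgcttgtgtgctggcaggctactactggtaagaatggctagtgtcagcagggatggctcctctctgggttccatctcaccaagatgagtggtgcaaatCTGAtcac
Snord15b: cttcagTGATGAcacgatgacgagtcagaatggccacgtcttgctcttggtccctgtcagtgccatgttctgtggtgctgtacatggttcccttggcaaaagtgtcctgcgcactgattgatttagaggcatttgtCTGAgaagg
Snord22: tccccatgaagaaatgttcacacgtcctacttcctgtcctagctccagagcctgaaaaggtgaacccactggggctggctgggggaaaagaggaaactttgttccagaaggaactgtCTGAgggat
Snord47: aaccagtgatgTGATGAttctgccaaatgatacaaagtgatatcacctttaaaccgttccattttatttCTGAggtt
Snord22 has no exact TGATGA in its first 25 bases, so only its CTGA is in capitals.

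Each motif was searched as these exact letters on the transcript strand alone, because the RNA is transcribed from that strand. TGATGA near the start was found in 0 of 41 H/ACA and 69 of 97 C/D genes, and in 0.816% of all other M21 transcripts. CTGA near the end was found in 3 H/ACA and 91 C/D genes and in 7.05% of other transcripts. ACA ending 3 bases before the end was found in 34 H/ACA and 0 C/D genes and in 2.43% of other transcripts, while ANANNA in the first 132 bases is so short a pattern that 72.6% of other transcripts hold it, beside 41 H/ACA and 85 C/D genes. Both C/D motifs were found in 67 of 97 C/D genes and both H/ACA motifs in 34 of 41 H/ACA genes, so the exact letters are not in every gene of the class that the symbol names. Among the H/ACA genes, 21 of 34 with ACA at its place were detected and 5 of 7 without it. Among the C/D genes detection cannot be set against the boxes, since all 92 under 121 bases had 0 counts. The GC content of the 26 detected H/ACA genes had a median of 51.5% (34.4% to 64.1%), against 44.2% (33.3% to 56.9%) in the 15 not detected, with broad overlap. The long Snora43 row, described below, is counted here as detected and with ACA. Its motifs and GC content are those of the 139 bases in M21, while its counts come from longer M4 transcripts.

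Snora73b and Snora73a held most of the counts of the 138 snoRNA genes. Snora73b had 136597 expected counts in replicate 1 and 133765 in replicate 2, and Snora73a had 71425 and 67768. Together they made up 83.8% of the counts of these 138 genes (4221 CPM) in replicate 1 and 84.9% (3602 CPM) in replicate 2. Both RNAs are forms of U17, which is needed for early cuts of the ribosomal RNA precursor, and lie as neighbours within Snhg3, a noncoding host at 38.6 and 25.9 TPM in replicates 1 and 2. Their sequences are identical at 198 of 205 positions (96.6%), and neither their expected counts nor their sums of 208021 in replicate 1 and 201532 in replicate 2 were exact whole numbers, so some reads were shared out with genes outside the pair. How many were shared within the pair is not shown by the tables, and the split of 65.7% for Snora73b in replicate 1 and 66.4% in replicate 2 is uncertain to that extent.

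Levels between genes are compared here as CPM per kilobase of annotated length, a scale that does not use effective length. On it Snora73b stood at 13522 in replicate 1 and 11662 in replicate 2, and Snora73a at 7070 and 5908. Next came the C/D gene Snord17, with 1654 in replicate 1 and 1422 in replicate 2. Snord17 guides methylation of 28S ribosomal RNA from an intron of Snx5. Snord15b, at 546 in replicate 1 and 469 in replicate 2, and Snord15a, at 272 and 206, followed in the same range as Snora74a and Snord22. Both Snord15 genes encode U15, which guides methylation of 28S ribosomal RNA, and both lie within Rps3, but they are identical at only 101 of 154 aligned positions. Snora74a (U19) stood at 443 in replicate 1 and 210 in replicate 2, and Snord22 at 399 and 293. In both libraries the order of the first 4 genes on this scale was Snora73b, Snora73a, Snord17 and Snord15b, with gaps larger than the difference between replicates. Snora74a was above Snord22 in replicate 1 and below it in replicate 2. Snord15a was the lowest of these 3 in both, but its 272 in replicate 1 lies above the 210 of Snora74a in replicate 2, so their order is not settled. By TPM the order was another. Snord15b, at 16852 TPM in replicate 1 and 22988 in replicate 2, was above Snora73a, at 14001 and 14270. Snord17 was below both Snord15 genes by TPM.

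The remaining H/ACA genes lay below these. Snora52 followed at 137 CPM per kilobase in replicate 1 and 130 in replicate 2, Snora78 at 103 and 91.6, Snora61 at 98.6 and 84.3, and Snora26 at 71.6 and 30.7. Snora9, Snora57, Snora70 and Snora24 ranged from 52.9 to 67.4 in replicate 1 and from 43.6 to 54.7 in replicate 2, and their order differed between the libraries. The lowest detected snoRNA was Snora44, at 2.72 in replicate 1 and 1.48 in replicate 2. The detected H/ACA genes thus spanned from 2.72 to 13522 CPM per kilobase in replicate 1 and from 1.48 to 11662 in replicate 2, and the 5 C/D genes from 5.71 to 1654 and from 4.37 to 1422. The lowest C/D gene was Snord118, whose RNA U8 is needed for processing of 5.8S and 28S ribosomal RNA, with 38 expected counts in replicate 1 and 33 in replicate 2.

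**Figure D2:**
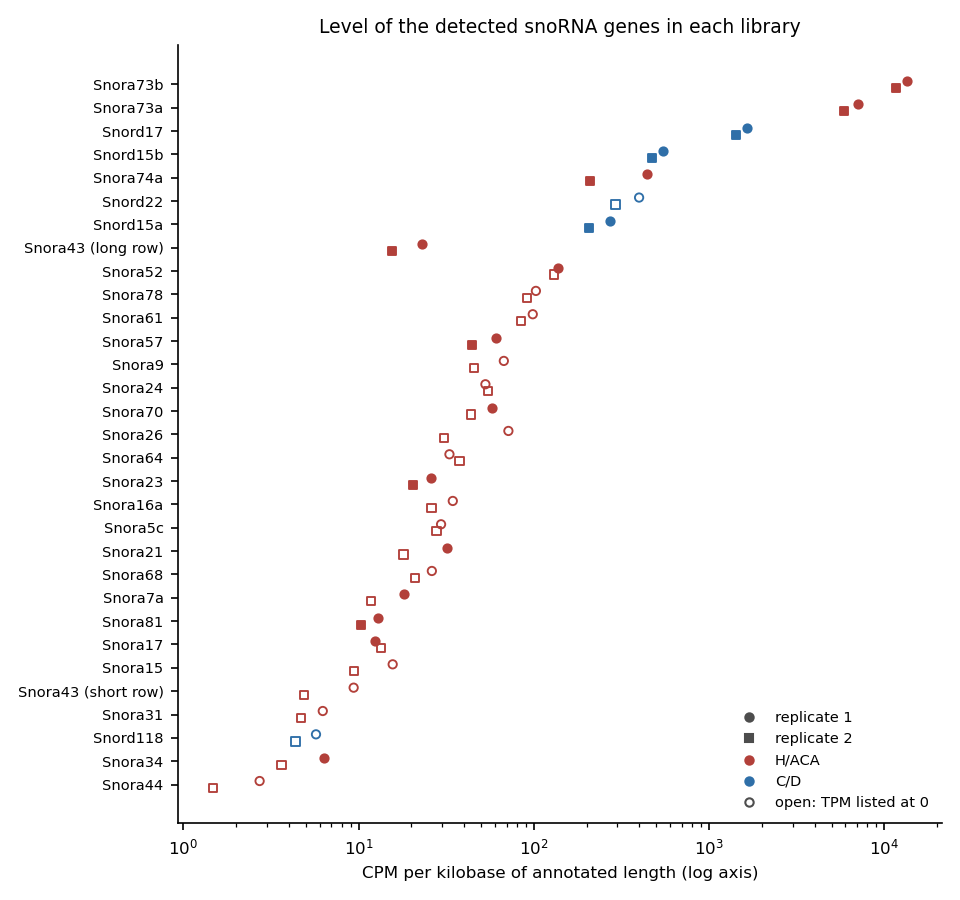
CPM per kilobase of annotated length (log axis) of the 31 detected snoRNA genes, with replicate 1 as circles drawn above replicate 2 as squares, H/ACA in red, C/D in blue and open symbols where TPM is listed at 0; genes run down the page by mean expected count. Snora73b and Snora73a lie apart at the right, and the long Snora43 row lies left of its neighbours because its table length is 1820 bases.

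The difference between the classes depended on which genes were set side by side. Over all genes the median H/ACA gene had 2.05 CPM in replicate 1 and 1.64 in replicate 2, and the median C/D gene had 0 CPM in both. On the log2(CPM + 0.1) scale H/ACA minus C/D was 4.43 in replicate 1 and 4.12 in replicate 2. Among genes of at least 121 bases the sign was the opposite: the medians were 2.05 and 1.64 CPM for the 41 H/ACA genes, against 50.2 and 36.9 CPM for the 5 C/D genes, a difference of -4.55 in replicate 1 and -4.41 in replicate 2. Per kilobase the medians of these same genes were 12.8 and 10.3 for H/ACA, against 399 and 293 for C/D. In TPM the medians over all genes were 0 in both classes and both libraries, so that scale gave a class difference of 0.

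TPM is 0 for many snoRNA genes that have counts. An expected count above 0 with a TPM of 0 was found for 20 genes in replicate 1 (18 H/ACA and 2 C/D) and for 26 genes in replicate 2 (24 H/ACA and 2 C/D). Over both libraries these were 27 genes, 19 of them in both. In every such case the effective length was itself 0. Effective length was 0 up to an annotated length of 136 bases in replicate 1 and 140 in replicate 2. The median gap between length and effective length, over protein-coding genes of 1000 bases or more, gave a mean fragment of 159 bases in replicate 1 and 166 bases in replicate 2, while the labels state a size range of 300 to 350. Over all 43346 genes 851 in replicate 1 and 954 in replicate 2 had counts and a TPM of 0, of which 85 and 103 had an effective length of 0.

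The genes with counts and TPM 0 held 2.44% of the counts of the 138 snoRNA genes in replicate 1 (6065 expected counts) and 2.96% in replicate 2 (7029). The largest was Snord22, with 2475 counts in replicate 1 and 2063 in replicate 2. Its RNA U22 is needed for 18S ribosomal RNA processing, and the gene would be missed by any threshold on TPM. Snora78 had 648 and 656 counts, Snora61 631 and 613, Snora9 442 and 340, and Snora24 339 and 398, all with TPM 0 in both libraries. Snord118, with its 38 and 33 counts, was the other C/D gene listed at 0 TPM.

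Because the limit differed between the libraries, 8 H/ACA genes of 137 to 140 bases had a TPM above 0 in replicate 1 and 0 in replicate 2. Of these, 6 had counts in both libraries, while Snora47, with 2 counts in replicate 1, and Snora2b, with 1, had 0 counts in replicate 2. Snora52 is the clearest case: it had 927 expected counts in replicate 1 and 1000 in replicate 2, but 8010 TPM in replicate 1 and 0 TPM in replicate 2. Snora70 had 389 and 335 counts with 3360 and 0 TPM, and Snora21 had 217 and 138 counts with 1875 and 0 TPM. Snora7a had 125 and 92 counts with 845 and 0 TPM. In replicate 1 Snora17 had 671 TPM and Snora34 343 TPM, and in replicate 2 both were listed at 0. The TMM-scaled counts of the 6 genes with counts in both differed between the libraries by less than a ratio of 2.

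Just above the limit TPM was high for few counts. Snord15b had 3899 expected counts in replicate 1 and 3808 in replicate 2, with an effective length of 2.09 bases in replicate 1 and 1.37 in replicate 2, and a TPM of 16852 and 22988. Snord17, of 238 bases, had 19395 and 18934 counts and an effective length of 79.2 and 72.3 bases, and its TPM was 2218 and 2169. By counts Snord17 was above Snord15b in both libraries, and by TPM below it in both. Snord15a and Snord15b together held 2.37% of the counts of the 138 snoRNA genes in replicate 1 and 2.32% in replicate 2, but 27.7% and 39.8% of the TPM of these 138 genes.

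Of all expected counts, the 138 Snora and Snord genes made up 0.504% in replicate 1 and 0.424% in replicate 2 (0.464% ± 0.0562, SD, n = 2). They held 8.41% of all TPM in replicate 1 and 7.84% in replicate 2 (8.13% ± 0.402), and per kilobase of annotated length 2.44% and 2.09%. H/ACA genes made up 5.86% and 4.50% of all TPM, and C/D genes 2.56% and 3.34%. By TPM the C/D share was higher in replicate 2, and by counts it was lower there, at 0.0564% in replicate 1 and 0.0474% in replicate 2. The 21474 protein-coding genes held 24.4% of TPM in replicate 1 and 24.3% in replicate 2.

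The direction of the difference between the libraries also changed with the scale. Of 9 detected snoRNA genes with an effective length in both libraries, leaving out the long Snora43 row, 9 had a count ratio above 1 for replicate 1 over replicate 2, and 2 (Snord17 and Snora74a) had a TPM ratio above 1. The sign differed for the other 7. The log2 ratio of effective lengths, replicate 1 over replicate 2, ran from 0.13 for Snord17 (79.2 and 72.3 bases) to 0.70 for Snord15a and Snora57 (2.77 and 1.71 bases). For Snora57, with 445 counts in replicate 1 and 366 in replicate 2, the TPM was 1455 and 1775. Snora23, with 235 and 210 counts, had 83.0 and 88.7 TPM, and Snora81, with 112 and 103 counts, had 50.3 and 57.3 TPM. On the log2 scale the TPM ratio of each gene equalled its CPM ratio minus the ratio of effective lengths, with a remainder of -0.05 to -0.06 in all 9.

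**Figure D3:**
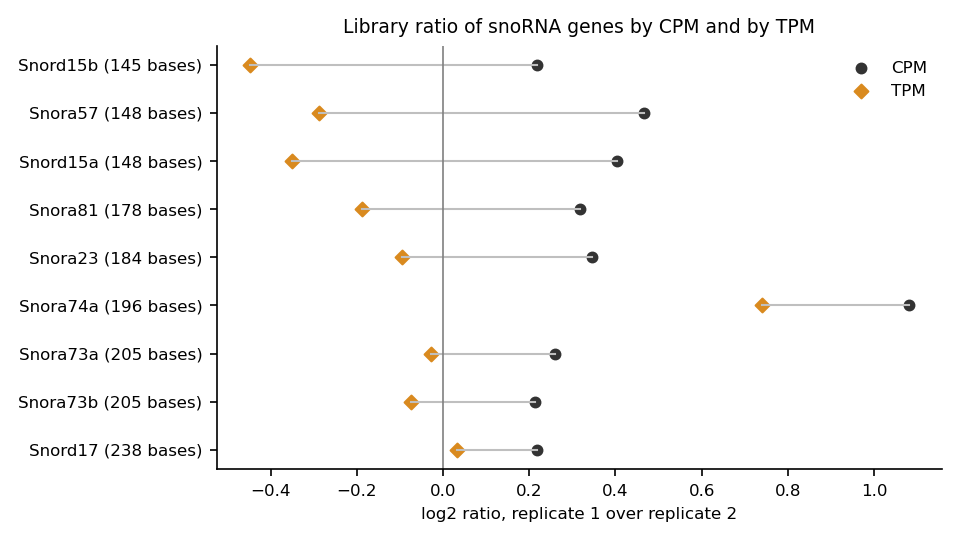
log2 ratio of replicate 1 over replicate 2 for the 9 detected snoRNA genes with an effective length in both libraries, as CPM (dark circles) and as TPM (orange diamonds) joined by a line; genes run from the shortest at the top to the longest at the bottom. All 9 CPM ratios lie above 0, and 2 TPM ratios do, those of Snora74a and Snord17.

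Between the libraries, snoRNA counts tended to be higher in replicate 1. Expected counts were rounded and scaled by TMM factors, and each gene with at least 10 counts summed over the libraries was compared by a two-sided exact binomial test with Benjamini-Hochberg adjustment over all 15438 such genes. A gene was called different at an adjusted p under 0.05 and a ratio of at least 2. Such a test sets 1 library against another and takes in counting error alone, so it says nothing of conditions. Of the 34 snoRNA genes tested, 29 were higher in replicate 1 and 5 lower, with a median log2 ratio of 0.32, against -0.01 over all genes tested. The median was 0.32 for the 29 H/ACA and 0.30 for the 5 C/D genes. Called higher in replicate 1 were 2 snoRNA genes, both H/ACA, and 0 were called lower, against 4.77% of all genes tested called in either direction, 1.07% called higher and 3.71% called lower. At an adjusted p under 0.05 with no limit on the ratio, 18 snoRNA genes were higher in replicate 1 and 0 lower, where 25.1% of all genes tested were higher and 25.2% lower.

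Snora26 and Snora33 were the 2 genes called. Snora26 had 427 expected counts in replicate 1 and 208 in replicate 2, a log2 ratio of 1.14 (95% counting interval 0.89 to 1.38, adjusted p = 8.54e-21 by the exact binomial test). Snora33 had 21 counts in replicate 1 and 8 in replicate 2, a log2 ratio of 1.49 with a wide interval of 0.26 to 2.88 (adjusted p = 0.0309, exact binomial test). Its 8 counts lie under the limit of 10 for detection, so 1 of the 31 detected genes was called. Snora74a, with 4281 counts in replicate 1 and 2298 in replicate 2, had a log2 ratio of 1.00 (0.92 to 1.07), just under the limit before rounding. With DESeq2 size factors or library totals it was called too, which made 3 genes.

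The other H/ACA genes with the largest differences past the adjusted p were Snora21, the short Snora43 row and Snora15. Snora21 had a log2 ratio of 0.75, the short Snora43 row, with 58.6 counts in replicate 1 and 34.8 in replicate 2, one of 0.85, and Snora15, with 101 and 69 counts, one of 0.65. Other genes of high count differed less than Snora74a. Snora73b had a log2 ratio of 0.13 (0.12 to 0.14), Snora73a of 0.17, Snord17 of 0.13 and Snord15b of 0.13, with intervals that leave out 0 because their counts are large. Snord15a stood at 0.32 and Snord22 at 0.36. The 5 genes lower in replicate 1 were Snora28 (-0.90, from 5 and 10 counts), Snora64 (-0.28), Snora17 (-0.21), Snora24 (-0.13) and Snora52 (-0.01), and none passed the adjusted p.

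**Figure D4:**
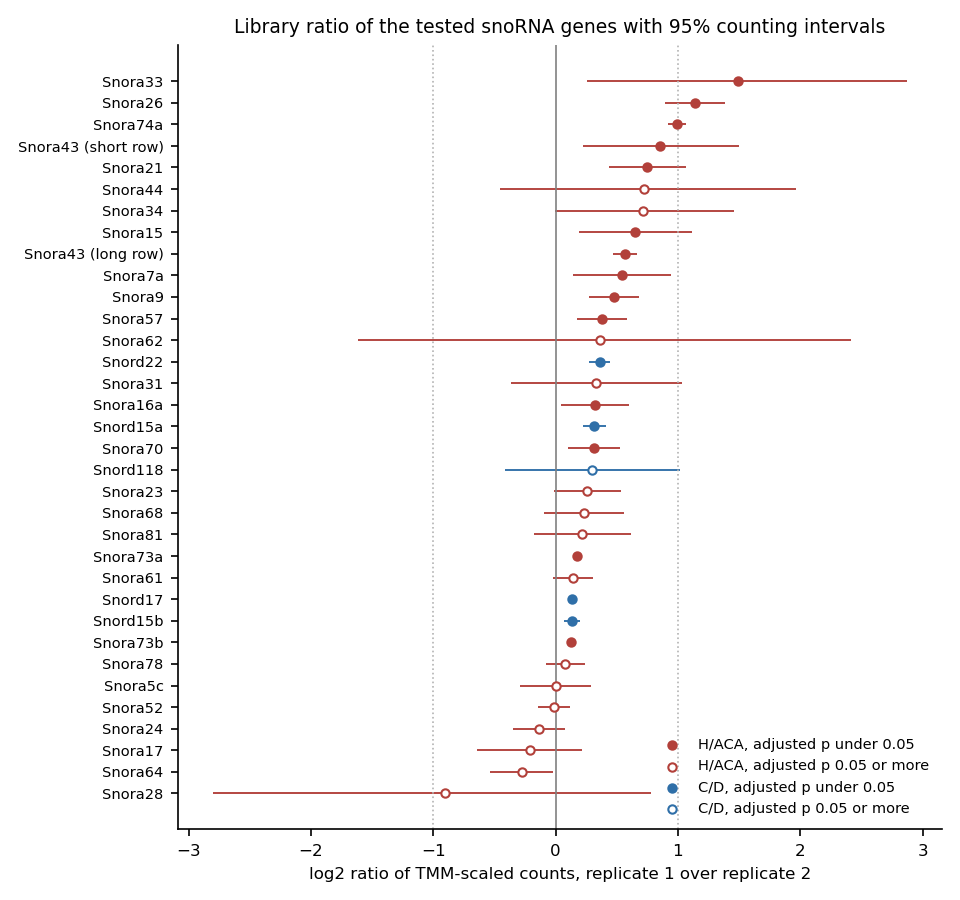
log2 ratio of TMM-scaled counts, replicate 1 over replicate 2, of the 34 snoRNA genes tested, with 95% counting intervals as bars, H/ACA in red and C/D in blue; filled points have an adjusted p under 0.05 by the exact binomial test and dotted lines mark a ratio of 2 either way. Of the 34 points 29 lie right of 0, and Snora33 and Snora26 lie past the dotted line.

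Other small nuclear RNA classes also had medians above 0. The median log2 ratio was 0.16 over 58 tested genes of biotype snoRNA with other names, 0.36 over 7 Scarna genes, which guide modifications of spliceosomal RNAs in Cajal bodies, and 0.68 over 36 snRNA genes. Over 12586 protein-coding genes the median was -0.01. Of the snoRNA genes with other names 45 were higher in replicate 1 and 13 lower. For the Scarna genes it was 4 and 3, and for the snRNA genes 33 and 3. Whether the ratio between libraries has the same source in these classes was not tested.

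Transcripts of the core proteins that bind snoRNAs were all detected, and protein was not measured. The C/D core proteins are fibrillarin (Fbl), Nop56, Nop58 and Snu13. Nop56 had 162 TPM in replicate 1 and 130 in replicate 2, Nop58 105 and 70.4, Snu13 91.8 and 68.0, and Fbl 49.8 and 41.7. Among the H/ACA core proteins Nhp2 had 157 TPM in replicate 1 and 118 in replicate 2, Nop10 74.2 and 57.1, the pseudouridine synthase dyskerin (Dkc1) 38.1 and 28.2, and Gar1 25.8 and 20.8. All 8 were higher in replicate 1 at an adjusted p under 0.05 by the exact binomial test, where 25.1% of all genes tested were higher and 25.2% lower, and none reached a ratio of 2. Of 12 assembly and trafficking factors, 12 were detected. They ran from Naf1, an H/ACA assembly factor, at 2.16 and 1.75 TPM to the ATPases Ruvbl1, at 50.0 and 37.4 TPM, and Ruvbl2, at 47.7 and 56.2 TPM. Of these, 10 were higher in replicate 1 and Ruvbl2 was lower at an adjusted p under 0.05, beside the same 25.1% and 25.2% of all genes, and 0 were called at a ratio of 2.

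Of the 12 snoRNAs listed for ribosomal RNA processing, 10 had a row. The 5 detected were Snora73b, Snora73a, Snora74a, Snord22 and Snord118, of 126 to 205 bases. The other 5, Snord13 with 104 bases, Snord14a with 87, Snord14c and Snord14d with 86 and Snord14e with 90, had 0 counts. Snord3a and Snord3b (U3) had no row and were not analysed here. The 19 imprinted C/D genes, copies of Snord116 with Snord64 and Snord107, which are known mainly from neurons, have 67 to 94 bases and 0 counts, as have genes of that length in general here.

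Host genes were expressed also where the snoRNA had no counts. A gene on the same strand whose span holds the snoRNA was found in M21 for 131 of 138 genes, 69 of them within introns only and 62 overlapping an exon of at least 1 host transcript. The host with the highest TPM was protein-coding for 82 and noncoding for 45, and for 4, among them Snord22 in Snhg1, no host had a row in M4. Of the 31 detected genes, 18 overlapped a host exon, among them Snora73a, Snord15b, Snora74a and Snord22, and 8 lay within introns only. Of the 98 snoRNA genes with 0 counts, 39 overlapped a host exon and 57 lay within introns only. Whether the counts include reads of host RNA was not tested. Among the same 98 genes, 74 had a host at 1 TPM or more in both libraries and 34 at 100 TPM or more. Rpl13a, a ribosomal protein gene, was at 1340 TPM in replicate 1 and 1332 in replicate 2, and its 4 snoRNAs Snord32a, Snord33, Snord34 and Snord35a, of 70 to 90 bases, had 0 counts. Gas5, a noncoding host, was at 159 and 177 TPM, and its 3 listed snoRNAs with a row, Snord47, Snord78 and Snord80, had 0 counts. Of the 6 H/ACA genes with 0 counts, Snora41 lies in Eef1b2, at 496 and 463 TPM, and Snora35 in Htr2c, a serotonin receptor gene listed at 0 TPM in both.

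Within 1 host, snoRNAs of similar length differed in level. Snhg12, a noncoding host at 42.6 TPM in replicate 1 and 29.7 in replicate 2, holds Snora61 (130 bases), Snora16a (136 bases) and Snora44 (129 bases). Each of them overlaps an exon of a host transcript, and whether its counts include reads of the host was not tested. Snora61 stood at 98.6 CPM per kilobase in replicate 1 and 84.3 in replicate 2, Snora16a at 34.5 and 26.0, and Snora44 at 2.72 and 1.48, and the order was the same in both. Rps12 was at 1382 and 1491 TPM, and its H/ACA gene Snora33 had 21 and 8 counts. Over 37 snoRNA genes of 121 to 238 bases with a host value, Spearman's rho between host TPM and snoRNA CPM per kilobase was 0.155, given as a description of genes that share libraries and in part hosts.

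The longest row needs care. Snora43 has a short row of 127 bases and a long one of 1820 bases in replicate 1 and 1734 in replicate 2, whose M4 transcripts have 741 and 2366 bases, while M21 gives the same identifier 139 bases. The long row had 2074 expected counts in replicate 1 and 1500 in replicate 2, at 11.3 and 7.92 TPM, and most of them were on the transcript of 2366 bases, with 1830 and 1287 counts. The row thus counts reads of transcripts far longer than a snoRNA under the symbol, and without it 30 snoRNA genes were detected. Of the 31 detected genes, 14 had whole counts in both libraries, within 0.005, and 17 did not, which shows that some of their reads were shared out among genes.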

How the data were processed

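Total RNA of CH12.LX was sequenced in 2 libraries, labelled biological replicates 1 and 2. The deposited gene tables hold expected counts, which are estimated counts per gene, per the file headers, with TPM, FPKM and posterior mean TPM made by the authors from the same reads. Other columns deposited by the authors are annotated length, effective length and lower and upper bounds for TPM, as the file headers name them. Aligner and quantifier: not given in the sources used here. Assembly mm10 is named in the labels. The M4 table was used, with releases M2 and M3 as alternatives. Its 26248 rows with numeric identifiers and 97 other rows name no gene and were left out. Their counts were 28 of the total of replicate 1 (5.68e-05%) and 29.99 of that of replicate 2 (5.36e-05%).

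Symbols, biotypes, coordinates and sequences came from GENCODE M21 on GRCm38, which is mm10, and 42462 of 43346 genes matched on the identifier without its version. CPM was computed from expected counts over the total of these genes, and per kilobase by annotated length. For the comparison of libraries, counts were rounded and scaled with TMM (edgeR 4.0.16 in R 4.3.3), and a two-sided exact conditional binomial test with the smaller tail doubled was run on genes with at least 10 counts summed over both libraries, with Benjamini-Hochberg adjustment at 0.05. It was also run on simulated counts with no variation beyond counting, which is what the test assumes. That run says nothing of the spread between cultures. Size factors from DESeq2 1.42.0 were an alternative. Other steps used Python 3.11.15, numpy 2.4.6, pandas 2.3.3, scipy 1.17.1 and matplotlib 3.10.9.

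The genes named are, per class, the 8 highest by mean TPM and by mean expected count, the 5 with most counts at an effective length or TPM of 0, the 6 per direction with the largest ratio past the test, the longest and shortest detected, and all genes of the lists. Other genes, among them the shared-host examples, Cd3d, Ighm and the hosts named, and the printed sequences, were picked with their values in view. The snoRNA genes and all lists were chosen with earlier results of these data known. A host is a protein-coding, lincRNA, processed-transcript or antisense gene on the same strand whose span holds the snoRNA gene, and where several do, the one with the highest mean TPM.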

Additional observations from a re-analysis of the deposited data

How the results depend on the processing

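The 31 detected snoRNA genes were 32 without replicate 1 and 32 without replicate 2, and 11 at a threshold of 1 TPM in each library, since TPM is 0 below the length limit. Genes with counts and an effective length or TPM of 0 numbered 27, and 26 without replicate 1 and 20 without replicate 2. The H/ACA minus C/D difference in median log2 CPM, 4.28 over both libraries and 4.12 to 4.43 with 1 replicate left out, was 1.51 with a pseudocount of 1 CPM and 6.86 per kilobase of annotated length, and it reversed to -3.32 over detected genes and -4.48 over genes of at least 121 bases, which drop the C/D genes at 0. The difference in log2 TPM, 0 over all genes, was -12.71 over detected genes and -14.42 over genes of at least 121 bases. The share of TPM held by the 138 snoRNA genes, 8.13% and 7.84% to 8.41% with 1 replicate left out, was 0.464% by expected counts, 2.26% per kilobase and 3.97% without Snora73a and Snora73b. The 2 genes called different between the libraries were 3 with DESeq2 size factors or library totals, 18 by adjusted p alone and 0 where the deposited TPM bounds must not overlap, since both genes have TPM bounds of 0. Release M2 or M3 moved none of these counts and no difference past the spread between replicates. The alternatives by length, per kilobase and without single genes were chosen after seeing the data. No paired analysis was possible because both libraries belong to 1 group, and leaving out a library leaves no comparison between libraries. At 2 libraries the spread between cultures is poorly known. For snoRNA genes under 121 bases no level can be given, only the upper limit on counts that goes with 0 counts, which is not a limit on the amount of RNA. Whether those 0 counts follow from depth or fragment size was not tested.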
